A study of Mus musculus with 10 samples.

Results

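The miRNAs described here are miR-99a-5p, miR-99b-5p, miR-100-5p and miR-125a-5p, the products of hairpins that lie beside let-7 genes in the mouse genome. They were chosen by name, and the rows of all 4 were found among the 721 miRNAs of the series, both in the table of 679 miRNAs from brown adipose tissue (BAT) and in the table of 436 miRNAs from plasma. The libraries hold small RNA of small extracellular vesicles, membrane particles released by cells, taken from C57BL/6J mice. The 10 libraries are named by their titles as Exe BAT (3 libraries), Sed BAT (3), Exe plasma (2) and Sed plasma (2). Sed is taken to mean mice without training, although the labels give sessions of 90 min, 2 per day over 4 weeks, for every sample, Sed included. The descriptions of the plasma libraries carry the tag wt, read here as wild type, and those of the BAT libraries carry no genotype. No age or pooling of animals is stated, and the labels do not tie replicates to different animals. Every p-value therefore rests on library-to-library spread that could be technical.

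MicroRNAs silence messenger RNAs that pair with the seed, a short stretch near the 5′ end of the mature strand. The miR-99 family, formed by miR-99a, miR-99b and miR-100, is known for repressing the kinase mTOR and with it growth signalling. The miR-125 family descends from lin-4 of Caenorhabditis elegans and sits with let-7, another regulator of developmental timing in that worm, in clusters that were copied during vertebrate evolution. In mice, miR-99b carried by vesicles from brown fat has been described as a repressor of Fgf21, a hormone gene, in the liver.

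The mature sequences are shown because the family members differ by few bases, which decides how reads are told apart, and because the let-7 neighbours serve as the comparison below. They are given 5′ to 3′ from RefSeq (GRCm38.p6), with the seed (bases 2 to 8) in capitals.
miR-99a-5p: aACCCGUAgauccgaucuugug
miR-100-5p: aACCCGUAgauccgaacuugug
miR-99b-5p: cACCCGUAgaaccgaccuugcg
miR-125a-5p: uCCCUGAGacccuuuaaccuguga
miR-125b-5p: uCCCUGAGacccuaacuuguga
let-7c-5p: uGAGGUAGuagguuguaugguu
let-7a-5p: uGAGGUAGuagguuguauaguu
let-7e-5p: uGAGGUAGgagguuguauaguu
The miR-99 family shared the seed ACCCGUA, and miR-125a-5p shared CCCUGAG with miR-125b-5p. Counted from the 5′ end, miR-100-5p differed from miR-99a-5p by U16A alone, and miR-99b-5p differed from miR-99a-5p by A1C, U11A, U16C and U21C. The first 13 bases of miR-125a-5p and miR-125b-5p were the same. Reads of miR-99a-5p and miR-100-5p can therefore be confused by a single mismatch, and the treatment of mismatches in counting is not stated.

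The 4 hairpins fall in 3 clusters, all on the plus strand (GENCODE M21, GRCm38). Mir99a at chr16:77598936-77599000 lies 656 bases before Mirlet7c-1 and, with Mir125b-2 some 46.5 kb further on, within introns of the non-coding gene Mir99ahg. Mir100 at chr9:41531425-41531504 lies 5.21 kb before Mirlet7a-2, and Mir125b-1 follows after 45.1 kb, all within introns of 3110039I08Rik, a non-coding transcript. Mir99b at chr17:17830188-17830257, Mirlet7e after 94 bases and Mir125a after a further 367 bases, at chr17:17830812-17830879, lie within Spaca6, a protein-coding gene with a role in sperm, the first of these in an intron and Mir125a over an exon of an annotated transcript. The sequences of let-7c-5p and let-7a-5p are each held by 2 hairpins, the second on another chromosome, and miR-125b-5p comes from both Mir125b-1 and Mir125b-2, so the reads of these neighbours are not those of a single cluster.

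Libraries held 104064 to 172279 miRNA reads in BAT and 1209116 to 1798169 in plasma. The 5 brown adipocyte markers chosen for the check (miR-193b-3p, miR-365-3p, miR-378a-3p, miR-455-5p and miR-455-3p) all had reads in both BAT groups. Their summed share was 22.9% to 29.8% in Exe BAT and 6.55% to 22.8% in Sed BAT. It was lowest in Sed BAT replicate 2, which stands apart in this sum. Most of the sum elsewhere was miR-378a-3p, at 20.7% to 27.1% in Exe BAT and 16.7% and 21.4% in Sed BAT replicates 1 and 3. With both sources scaled together, miR-365-3p had 1658, 2307 and 1284 CPM (scaled as below) in Exe BAT and 2517, 5893 and 2811 in Sed BAT. For miR-193b-3p these were 14653, 11466 and 12288 in Exe BAT and 3453, 7759 and 5770 in Sed BAT. Red cell markers (5, among them miR-451a) took 13.9% to 14.8% of reads in Exe plasma and 52.8% to 70.1% in Sed plasma. In Sed plasma this was nearly all miR-451a, at 69.8% and 52.8%. By contrast, miR-486a-5p and miR-486b-5p each had 9454 and 7978 CPM (scaled as below) in Exe plasma and 2588 and 65.0 in Sed plasma. The groups of miR-144-3p overlapped, and miR-144-5p had no read in Sed plasma. Leukocyte markers (4, among them miR-223-3p) took 1.98% to 2.23% in Exe plasma and 0.156% to 0.211% in Sed plasma. The largest part in Exe plasma was miR-150-5p, at 12784 and 17462 CPM, against 3276 and 543 CPM in Sed plasma. The groups of miR-223-3p overlapped, with 2222 and 889 CPM in Exe plasma and 0 and 1027 in Sed plasma. So did those of miR-142a-3p and miR-142a-5p when both sources were scaled together. The plasma table has a second whole number beside each read count, whose meaning is not stated. There were 1.41 and 1.64 reads per unit of it in Exe plasma and 3.31 and 21.4 in Sed plasma, so the plasma groups also differed in this quotient. Whether these differences have a part in the results below was not tested, except where a value is given beside a result.

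In BAT vesicles miR-99a-5p was the most abundant of the 4 in every library, followed by miR-100-5p, miR-99b-5p and miR-125a-5p. The mature strands are 22 to 24 bases long, so shares of miRNA reads are compared between miRNAs with no correction for length. Read lengths are not given, and whether different sequences enter a library equally well was not tested. The share of miR-99a-5p was 2.30% ± 0.111 in Exe BAT and 2.51% ± 0.337 in Sed BAT (SD, n = 3 each), which placed it 7th to 8th in the Exe libraries and 8th to 14th in the Sed libraries. For miR-100-5p the share was 1.13% ± 0.155 in Exe BAT and 1.29% ± 0.399 in Sed BAT, and for miR-99b-5p 0.340% ± 0.0520 in Exe BAT and 0.261% ± 0.0345 in Sed BAT. The least abundant, miR-125a-5p, had 0.0247% ± 0.00838 in Exe BAT and 0.0215% ± 0.00539 in Sed BAT, from 18 to 40 reads a library, so its values carry the widest counting error. Neighbours in this order were further apart than their spread in both groups.

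In plasma vesicles every library had miR-99a-5p first, then miR-99b-5p, above both miR-100-5p and miR-125a-5p. The order of the latter 2 changed, as Sed plasma replicate 1 had 941 reads of miR-125a-5p and 368 of miR-100-5p. The share of miR-99a-5p was 0.619% ± 0.350 in Exe plasma and 1.02% ± 0.193 in Sed plasma (SD, n = 2 each). That of miR-99b-5p was 0.316% ± 0.260 in Exe plasma and 0.768% ± 0.389 in Sed plasma. These group values overlapped within the spread between libraries, which does not measure the order within a library. For miR-100-5p the share was 0.0882% ± 0.0852 in Exe plasma and 0.0466% ± 0.0272 in Sed plasma, within the spread of the Exe libraries. These shares depend on the few miRNAs that dominate a library: without the 3 most abundant miRNAs of each table, miR-100-5p was at 0.136% in Exe plasma and 0.122% in Sed plasma, and with the second plasma values at 0.125% in Exe plasma and 0.151% in Sed plasma. In BAT the share of miR-99a-5p without the 3 most abundant miRNAs was 4.09% in Exe and 3.76% in Sed, the other way round from the full table. Plasma libraries had 5.83 to 32.1 reads of miR-99a-5p for each read of miR-100-5p, whereas BAT libraries had 1.25 to 2.65, with no overlap between the sources. The tables were made separately, so source and table cannot be told apart and this contrast was not tested.

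**Figure D1:**
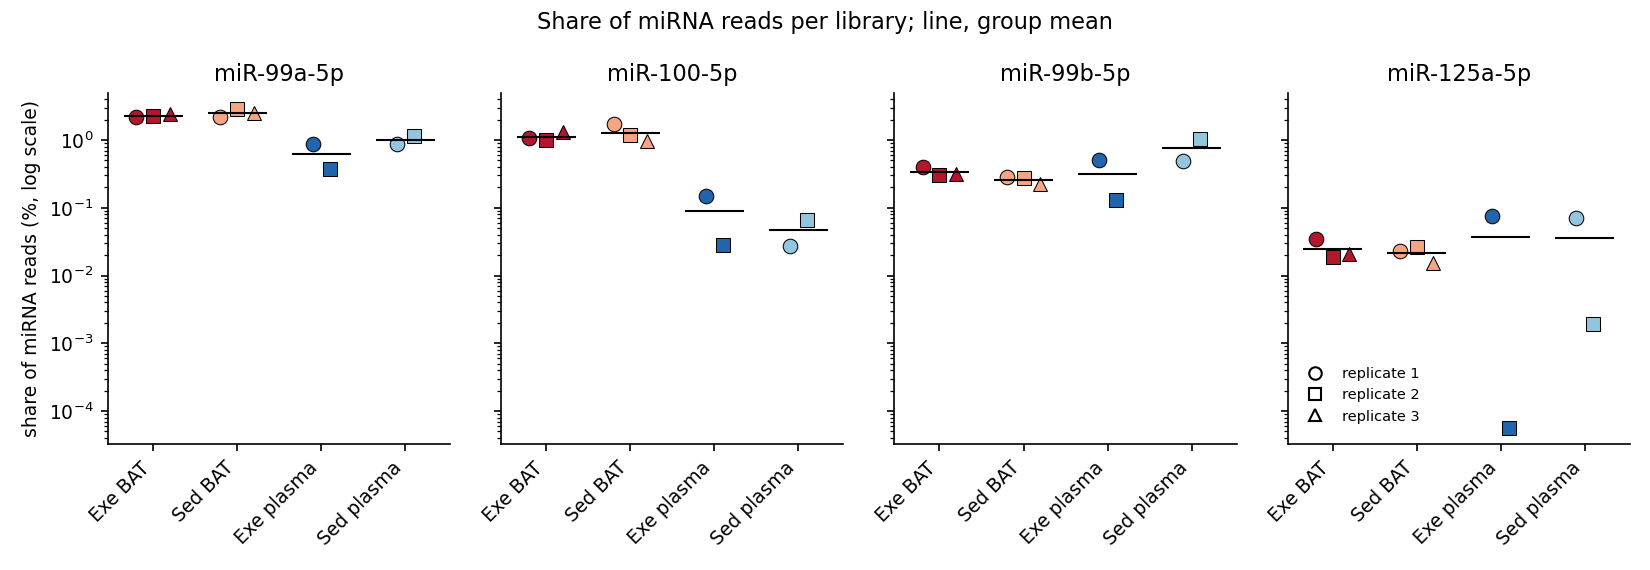
Share of miRNA reads (%, log scale) of miR-99a-5p, miR-100-5p, miR-99b-5p and miR-125a-5p in each of the 10 libraries, by group; symbols give the replicate and lines the arithmetic group mean. In BAT the libraries of a miRNA lie close together, while miR-125a-5p in plasma splits within each group, with 906 and 1 reads in Exe plasma and 941 and 35 reads in Sed plasma.

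Exe was first set against Sed in BAT vesicles, with counts scaled for depth by the TMM method (CPM) and edgeR's quasi-likelihood test, where a Benjamini-Hochberg adjusted p under 0.05 over all 199 tested miRNAs counts as past the threshold. None of the 4 passed. For miR-99a-5p the values were 22236, 23433 and 26132 CPM in Exe BAT and 23295, 22074 and 26811 CPM in Sed BAT. The groups overlapped fully, and the log2 fold change was -0.0075 ± 0.23 (SE, adjusted p = 0.979), with a sign that changed between scalings. For miR-100-5p they were 10839.8, 10374 and 14099 CPM in Exe BAT and 18663, 9104 and 10109 CPM in Sed BAT. Sed BAT replicate 1 alone stood above the Exe libraries, and the log2 fold change of -0.10 ± 0.31 (adjusted p = 0.799) became 0.30 without it.

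The miRNA of brown fat vesicles named above, miR-99b-5p, had 4042, 3093 and 3456 CPM in Exe BAT and 3071, 2158 and 2334 CPM in Sed BAT. Every Exe library lay above every Sed library, though the lowest Exe and the highest Sed value nearly met. The log2 fold change was 0.48 ± 0.24 (adjusted p = 0.161) and remained between 0.38 and 0.66 under all alternatives tried, none of which brought it past the threshold. For miR-125a-5p, of the same cluster, the values were 348, 194 and 226 CPM in Exe BAT and 249, 202 and 163 CPM in Sed BAT, overlapping groups with a log2 fold change of 0.30 ± 0.32 (adjusted p = 0.518).

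Over all tested miRNAs, edgeR called 22.6% in BAT (9.55% higher and 13.1% lower in Exe), against 0 of the 4. Groups did not overlap for 44.2% (21.1% with Exe above and 23.1% with Exe below Sed), against 1 of the 4. An unadjusted p under 0.05 was found for 38.7% of all miRNAs and for 0 of the 4 in edgeR, and DESeq2 and limma-voom also called 0. The median log2 fold change of the 4 was 0.14, against -0.057 over all 199. Leaving out Sed BAT replicate 2 gave 0.46 for miR-99b-5p and 0.36 for miR-125a-5p.

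Of the neighbouring mature strands of the same clusters, let-7c-5p and let-7a-5p fell in BAT. The growth-restraining let-7c-5p, encoded beside miR-99a, had 12483, 11389.6 and 8288 CPM in Exe BAT and 29043, 46187 and 22669.6 CPM in Sed BAT. It fell by 1.61 ± 0.32 on the log2 scale (adjusted p = 0.0107), and the groups did not overlap. Beside miR-100, let-7a-5p had 12526, 13629 and 12818 CPM in Exe BAT and 32286, 31538 and 19918 CPM in Sed BAT, a log2 fold change of -1.10 ± 0.26 (adjusted p = 0.0154). Both are calls that single libraries decide: let-7c-5p did not pass without Exe BAT replicate 3 (-1.33), and let-7a-5p did not pass without Exe BAT replicate 1 (-1.02), 2 (-1.12) or 3 (-0.98), or with the library totals implied by the RPM values (-0.92). Between miR-99b and miR-125a, let-7e-5p had 739, 1087 and 986 CPM in Exe BAT and 2007, 1731 and 1099 CPM in Sed BAT (-0.78 ± 0.29, adjusted p = 0.0766), groups that did not overlap but did not pass. The lin-4 relative miR-125b-5p was at -0.19 ± 0.25 (adjusted p = 0.599), so 2 of these 4 neighbours fell, none rose, and their median was -0.94.

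**Figure D2:**
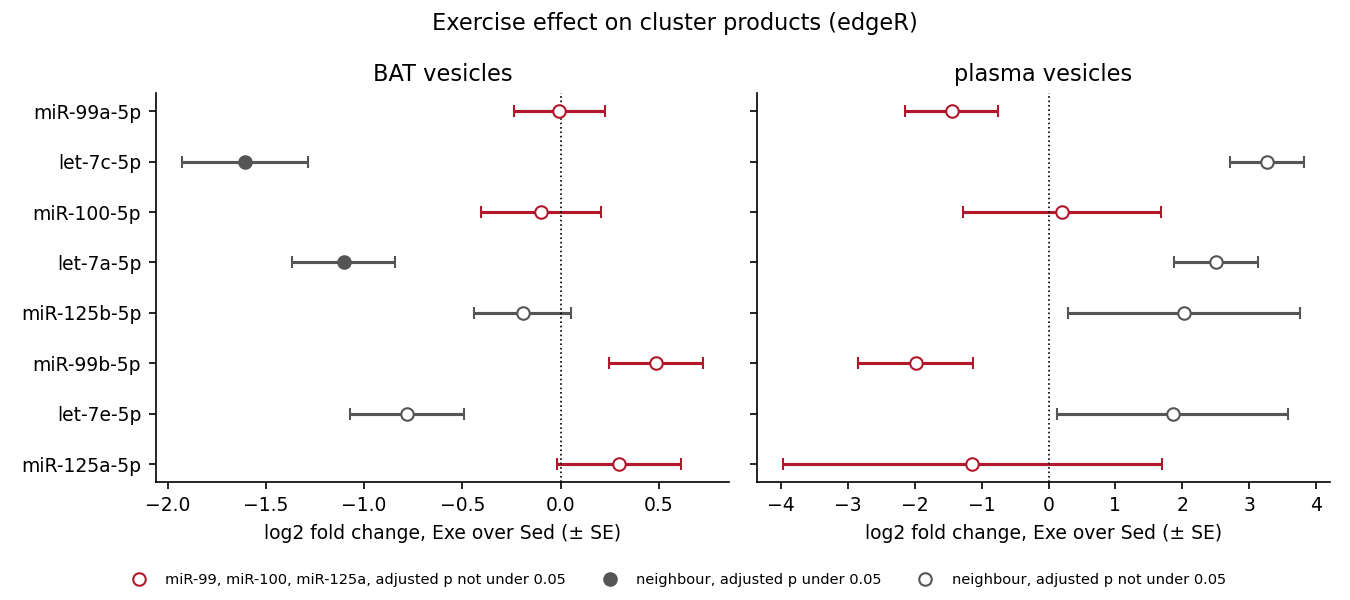
Log2 fold change of Exe over Sed with its standard error (edgeR) for the 4 miRNAs (red) and their cluster neighbours (grey) in BAT (left) and plasma (right, wider axis); filled points have an adjusted p under 0.05. The let-7 strands lie below 0 in BAT and above 0 in plasma, where miR-99a-5p and miR-99b-5p lie below 0 at -1.45 and -1.99.

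Ratios of 2 miRNAs within a library do not depend on how libraries are scaled. With 0.5 reads added to both counts, there were 1.78, 2.06 and 3.15 reads of miR-99a-5p per read of let-7c-5p in Exe BAT and 0.802, 0.478 and 1.18 in Sed BAT. For miR-100-5p per read of let-7a-5p the ratio was 0.865, 0.761 and 1.10 in Exe BAT and 0.578, 0.289 and 0.508 in Sed BAT. Every Exe library was above every Sed library in both, by 2.94-fold and 2.04-fold on the mean log2 scale. Both let-7 denominators had fallen in Exe BAT in the test above, while neither numerator passed. These ratios thus largely restate the let-7 values and are no separate support. Single miRNAs did not overlap between groups for 44.2% in BAT, and the share over other ratios was not computed.

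Within the Spaca6 cluster the ratio of miR-99b-5p to let-7e-5p was 5.44, 2.84 and 3.50 in Exe BAT and 1.53, 1.25 and 2.12 in Sed BAT, 2.37-fold higher in Exe. That of miR-125a-5p to let-7e-5p was 0.474, 0.181 and 0.232 in Exe BAT and 0.125, 0.119 and 0.152 in Sed BAT, 2.06-fold higher. Each of these 4 ratios had an exact permutation p = 0.1 (two-sided, n = 3 per group), the smallest that 3 against 3 libraries allow, and an adjusted p of 0.14 over the 7 ratios compared, so none can pass the threshold. Both ratios to let-7e-5p share that denominator, whose CPM was itself lower in every Exe BAT library than in any Sed BAT library. The 4 ratios stayed above 0 on the log2 scale with each library left out. The range was 1.21 to 1.87 for miR-99a-5p to let-7c-5p and 0.64 to 1.34 for miR-125a-5p to let-7e-5p.

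The ratios among the 4 themselves varied less between groups. There were 11.5, 15.7 and 15.1 reads of miR-99b-5p per read of miR-125a-5p in Exe BAT and 12.2, 10.5 and 13.9 in Sed BAT, a difference of 0.20 on the log2 scale (exact permutation p = 0.3, n = 3 per group). For miR-99a-5p to miR-100-5p the ratio was 2.05, 2.26 and 1.85 in Exe BAT and 1.25, 2.42 and 2.65 in Sed BAT (0.033, exact permutation p = 1). The ratio of miR-125a-5p to miR-125b-5p, strands with a common seed, was 0.160, 0.110 and 0.101 in Exe BAT and 0.0905, 0.0808 and 0.0918 in Sed BAT, with groups that did not overlap (0.47, exact permutation p = 0.1).

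**Figure D3:**
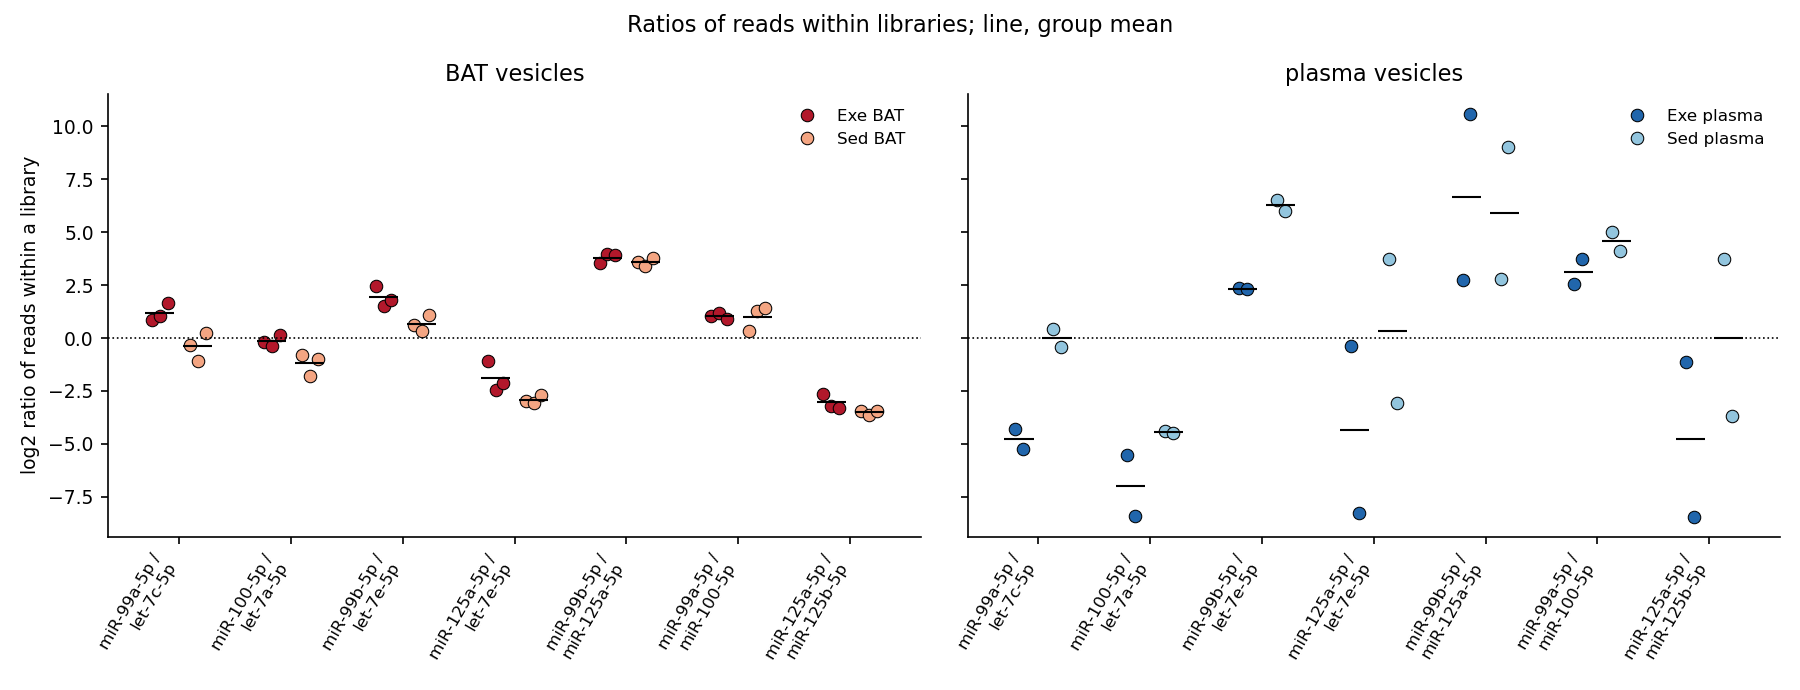
Log2 ratio of reads of 2 miRNAs within each library (0.5 reads added to both), for BAT (left) and plasma (right), Exe beside Sed; lines are group means. The 4 ratios of a miRNA to its let-7 neighbour lie higher in Exe in BAT, and the first 3 lie lower in Exe in plasma.

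Each hairpin also gives a 3p strand, usually the arm that is degraded. The hairpins of Mir99a and Mir125a are printed because their arms are plotted and described below, a choice made after their values were seen, with both mature arms in capitals and from RefSeq (GRCm38.p6).
Mir99a: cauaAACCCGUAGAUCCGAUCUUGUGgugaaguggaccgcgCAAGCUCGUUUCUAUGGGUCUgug
Mir125a: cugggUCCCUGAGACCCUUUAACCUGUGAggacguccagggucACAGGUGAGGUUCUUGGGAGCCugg
The strand miR-99a-3p had 2, 0 and 1 reads in Exe BAT and 10, 14 and 3 reads in Sed BAT, while miR-99a-5p had 2558 to 4159 reads in each library. That made 0.0290% of the reads of both arms over Exe BAT (exact 95% binomial interval 0.00598 to 0.0848) and 0.282% over Sed BAT (0.186 to 0.410). The ratio of Exe to Sed, per miRNA read, was 0.0967 (exact 95% counting interval 0.0188 to 0.314), where intervals cover counting error only.

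The filter on low counts left miR-99a-3p out of the main test. With no filter, edgeR's quasi-likelihood test gave it a log2 fold change of -3.07 ± 0.80 (adjusted p = 0.00375 over 679 miRNAs, of which 8.54% were called, 4.27% in each direction), a value that depends on the added prior count. The call was lost without Sed BAT replicate 2 (-2.59, adjusted p = 0.098), without Exe BAT replicate 2 (-2.44, adjusted p = 0.0984) and with DESeq2 (-3.11, adjusted p = 0.0773), over a range of adjusted p from 0.00145 to 0.0984 in the alternatives.

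The 3p arm of miR-125a had 10, 13 and 7 reads in Exe BAT and 3, 2 and 5 reads in Sed BAT, or 22.1% of both arms in Exe BAT (15.4 to 30.0) and 10.6% in Sed BAT (5.22 to 18.7). Every Exe library had more of these reads than every Sed library, but the shares overlapped between libraries, and the unfiltered test did not call it (1.45 ± 0.62, adjusted p = 0.142). The 3p arm of miR-99b had 2, 6 and 8 reads in Exe BAT and 12, 4 and 1 in Sed BAT, and that of miR-100 had 3, 2 and 2 reads in Exe BAT and 0, 0 and 2 in Sed BAT. Of the 9 other arms of the clusters listed for BAT, miR-99a-3p was the only one called with no filter. In plasma miR-99b-3p had 1 read in Exe plasma replicate 2 and none elsewhere, and miR-100-3p had none.

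**Figure D4:**
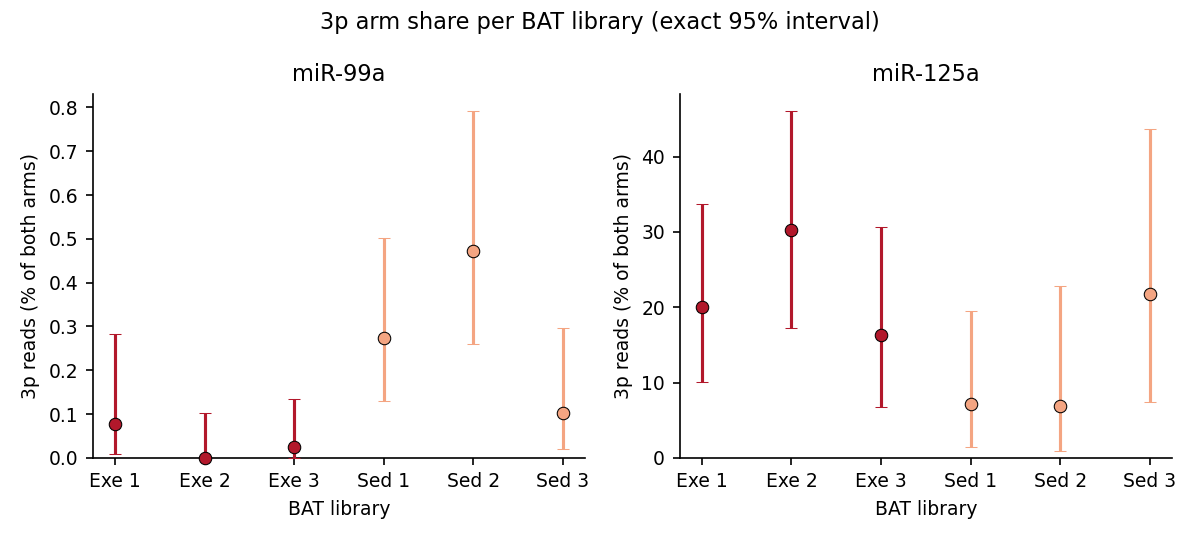
Reads of the 3p arm as a percent of both arms of miR-99a (left) and miR-125a (right) in each BAT library, Exe beside Sed, with exact 95% binomial intervals. For miR-99a the Exe libraries lie at 0.0781%, 0% and 0.0240%, below the 0.102% to 0.473% of the Sed libraries. The nearest libraries, Exe 1 with 2 reads and Sed 3 with 3 reads, have overlapping intervals (0.00946 to 0.282 and 0.0209 to 0.296). For miR-125a the groups overlap.

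In plasma vesicles, set against each other in the same way, edgeR called 0% of 182 tested miRNAs and 33% had an unadjusted p under 0.05. For miR-99a-5p the values were 5821 and 3499 CPM in Exe plasma and 13706 and 11722 CPM in Sed plasma. Both Exe libraries lay below both Sed libraries, with a log2 fold change of -1.45 ± 0.69 (SE, n = 2 per group, adjusted p = 0.204). For miR-99b-5p they were 3356 and 1242 CPM in Exe plasma and 7659 and 10598 CPM in Sed plasma, again without overlap (-1.99 ± 0.86, adjusted p = 0.170). Groups did not overlap for 59.3% of all tested miRNAs (28.6% with Exe above and 30.8% with Exe below Sed), so 2 of 4 is near the background. As shares of all miRNA reads, without the TMM factors, the groups of miR-99b-5p overlapped.

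Leaving out Exe plasma replicate 2 moved the miRNAs tested in both fits by a median of 0.64. The log2 fold changes of miR-99a-5p and miR-99b-5p were then -0.54 and -0.84. Without the 3 most abundant miRNAs of the table, miR-451a among them, they were -1.37 and -1.93, and with the second plasma values -1.20 and -1.55. All alternatives kept both below 0.

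No direction can be given for the other members of the set. The values of miR-100-5p were 998 and 264 CPM in Exe plasma and 426 and 669 CPM in Sed plasma, with the Sed libraries between the Exe ones (0.20 ± 1.48, adjusted p = 0.925). For miR-125a-5p there were 906 and 1 reads in Exe plasma and 941 and 35 reads in Sed plasma. Replicates of a group thus differed by far more than the groups did, and the single read in Exe plasma replicate 2 has an exact 95% counting interval of 0.0253 to 5.57 reads. The log2 fold change was -1.14 ± 2.84 (adjusted p = 0.780), and it ranged from -9.75 to 3.69 with 1 library left out. None of the 4 had an unadjusted p under 0.05, and DESeq2 and limma-voom called 0 of the 4. Their median was -1.29, against 0.32 over all tested miRNAs.

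The neighbours had values above 0 in plasma without a call: let-7c-5p was at 3.26 ± 0.55, let-7a-5p at 2.50 ± 0.63, let-7e-5p at 1.86 ± 1.73 and miR-125b-5p at 2.02 ± 1.74. Their median was 2.26. Under other settings let-7c-5p passed in 11 of 13 and let-7a-5p in 7 of 13. The ratio of miR-99a-5p to let-7c-5p was 0.0509 and 0.0260 in Exe plasma and 1.35 and 0.743 in Sed plasma, a difference of -4.78 on the log2 scale. For miR-100-5p to let-7a-5p the ratio was 0.0214 and 0.00297 in Exe plasma and 0.0472 and 0.0449 in Sed plasma (-2.53). That of miR-99b-5p to let-7e-5p was 5.15 and 4.96 in Exe plasma and 92.4 and 63.7 in Sed plasma (-3.92).

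Both Exe libraries were below both Sed libraries in these 3 ratios. Single miRNAs did not overlap between groups for 59.3% in plasma, and the share over other ratios was not computed. Their let-7 denominators had values above 0 in plasma, as given above, so the ratios are no separate support. That of miR-125a-5p to let-7e-5p overlapped, with 0.774 and 0.00319 in Exe plasma and 13.2 and 0.121 in Sed plasma (-4.66, exact permutation p = 0.667, n = 2 per group). For the first 3 ratios the exact permutation p was 0.333 each (two-sided, n = 2 per group, the smallest this design allows), with an adjusted p of 0.583 over the 7 ratios compared, so that none can pass. With the second plasma values the differences were -3.51, -1.42 and -3.61. The miR-100-5p ratio was -1.11 without Exe plasma replicate 2 and -3.95 without Exe plasma replicate 1. The ratio of miR-99a-5p to miR-100-5p, 5.83 and 13.2 in Exe plasma and 32.1 and 17.5 in Sed plasma, also did not overlap (-1.43, exact permutation p = 0.333).

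Whether the exercise effect differed between the sources was tested in a joint edgeR fit of all 4 groups over miRNAs listed in both tables, where 29.1% of 234 tested miRNAs were called (16.7% higher and 12.4% lower) and 44.9% had an unadjusted p under 0.05. The effect in BAT minus that in plasma was 2.79 ± 0.91 on the log2 scale for miR-99b-5p (adjusted p = 0.0413), with Exe above Sed in all 3 BAT libraries and below it in both plasma libraries. For miR-99a-5p it was 1.73 ± 0.66 (adjusted p = 0.0688), for miR-100-5p -0.00096 ± 1.07 (adjusted p = 0.9996) and for miR-125a-5p 1.14 ± 2.49 (adjusted p = 0.727). So 1 of the 4 passed. The value of miR-125a-5p was 10.36 and passed without Exe plasma replicate 1 (adjusted p = 0.0155), and was -2.83 without Sed plasma replicate 1. The median over all tested miRNAs was 0.57. The median shift of single miRNAs was 0.99 with upper-quartile factors and -1.13 with library size alone, so these values are read against that scale.

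The call of miR-99b-5p was not stable. It held under 9 of 20 alternatives and was lost under 11, among them library size alone, no filter, limma-voom and the second plasma values, as well as without Sed BAT replicate 1 (2.66), 2 (2.38) or 3 (2.79), Exe BAT replicate 1 (2.64) or 2 (2.66), and Sed plasma replicate 2 (2.03). It was 4.30 without Exe plasma replicate 1. Across all alternatives the value ran from 1.67 to 4.30 and the adjusted p from 0.000286 to 0.171. Conversely, miR-99a-5p passed under 8 of 20 alternatives, among them DESeq2 (2.09), upper-quartile factors (2.91) and the sum with miR-100-5p (1.84). The neighbours let-7c-5p (-4.37 ± 0.72, adjusted p = 0.00264) and let-7a-5p (-2.99 ± 0.64, adjusted p = 0.00664) passed on the other side of 0, and did so under all 20 alternatives.

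Finally, the miRNAs whose ratio to each of the 4 varied least over the 6 BAT libraries were listed, as a description only. These libraries differed in depth, from 104064 to 172279 miRNA reads, while a ratio within a library does not depend on scaling. The steadiest partner was that of miR-99b-5p, miR-423-3p, with an SD of 0.074 for the log2 ratio, against a median SD of 0.62 over the 195 miRNAs compared. Next to it came miR-296-5p (0.15) and miR-29c-5p (0.21). For miR-99a-5p they were miR-203-5p (0.13), miR-30d-5p (0.15) and miR-181a-5p (0.17), for miR-100-5p miR-199a-5p (0.18), miR-181c-5p (0.22) and miR-26a-5p (0.22), and for miR-125a-5p miR-484 (0.21), miR-152-3p (0.22) and miR-342-3p (0.23). Among the 4 themselves the SD was 0.23 for miR-99b-5p and miR-125a-5p, which share a cluster, and 0.38 to 0.45 for the other pairs. No let-7 strand was among these closest miRNAs. Each named miRNA is among the smallest SDs of 195, and some had few reads. With both sources scaled together, BAT libraries had 67.1 to 89.2 CPM of miR-203-5p and 50.3 to 94.4 CPM of miR-296-5p. For miR-125a-5p, with 18 to 40 reads a library, they had 91.7 to 210 CPM. Small SDs at such counts cannot be told from counting error.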

How the data were processed

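Small RNA reads of 10 vesicle libraries were counted per mature miRNA. The authors deposited read counts for each source, per the file headers. The deposited BAT values beside them are RPM, each equal to the read count over 1 total per library within 0.00404. The second whole-number count in the deposited plasma table has no stated making and was used as an alternative only. Per the submitters' processing notes, Bowtie 0.12.2 and 2 genome builds, mm8 and mm9, were used in a role that is not stated. For the miRBase release, trimming, counting program and mismatches, settings were not given in the sources used here.

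Counts were tested with edgeR 4.0.16 (quasi-likelihood, TMM, filterByExpr, robust) in R 4.3.3, over each whole table, with limma 3.58.1 and DESeq2 1.42.0 as alternatives. SE was the log2 fold change over the square root of F. Ratios used 0.5 added reads and exact permutation tests (Python 3.11.15, scipy 1.17.1). Plots were drawn with matplotlib 3.10.9. Scripts were tested on simulated data. The alternatives were other scalings and filters, a replicate block, leaving out each library or the 3 most abundant miRNAs, and summing miR-99a-5p with miR-100-5p. Members, lists and named miRNAs (the 4, their cluster products and the 3 of steadiest ratio) were chosen with earlier results of these data known. Library sizes are given in the report.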

Additional observations from a re-analysis of the deposited data

Results flagged for a closer look

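The exercise effect differed between the sources past the threshold for 3 of the 8 cluster products described here in the joint edgeR fit, where 29.1% of all tested miRNAs passed, so the count is near the background. For miR-99b-5p the effect in BAT minus that in plasma was 2.79 ± 0.91 on the log2 scale, and for the let-7 neighbours of miR-99a and miR-100 it was -4.37 ± 0.72 (let-7c-5p) and -2.99 ± 0.64 (let-7a-5p). The let-7 values passed under all 20 alternatives, and that of miR-99b-5p under 9 of 20. No group has more than 3 libraries, so single libraries could not be tested as outliers.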

How the results depend on the processing

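The 45 calls in BAT became 21 with means of 50 counts or more, and 16 to 56 with 1 library left out. The 0 calls in plasma became 59 with DESeq2, 4 with upper-quartile factors, 10 with library size alone, 17 with no filter, 29 with means of 50 counts or more, 35 with limma-voom, 1 without the 3 most abundant miRNAs, 11 with the second values and 3 to 27 with 1 library left out. The 68 differences became 44 with the second values and 36 to 119 with 1 library left out. Deviations from the group mean of same-numbered libraries had correlations of -0.12 to 0.004 in BAT and -0.076 in plasma. With 2 libraries per plasma group, both replicate numbers give the same value by construction. With so few libraries, this cannot show whether the numbers mark pairs or batches. The replicate block gave 25 calls in BAT, 7 in plasma and 45 differences, and for miR-100-5p -0.057 in plasma and 0.43 for the difference, and for miR-99b-5p a difference of 3.05 that did not pass (adjusted p = 0.124).

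On the log2 scale, miR-99a-5p in BAT turned positive with DESeq2 (0.014), upper-quartile factors (0.14), no filter (0.00082), means of 50 counts or more (0.13), without the 3 most abundant miRNAs (0.021) and with RPM totals (0.23), and ran from -0.023 to 0.11 with 1 library left out. In BAT miR-100-5p was 0.084 with upper-quartile factors, 0.054 with means of 50 counts or more, 0.062 with RPM totals and -0.20 to 0.30 with 1 library left out. In plasma it was -0.74 with upper-quartile factors, -0.12 with means of 50 counts or more and with limma-voom, -0.26 with the second values and -0.86 to 1.47 with 1 library left out. In plasma miR-125a-5p was 0.057 with library size alone and -9.75 to 3.69 with 1 library left out.

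The difference between sources for miR-99a-5p passed with DESeq2 (2.09), upper-quartile factors (2.91), means of 50 counts or more (2.12), without the 3 most abundant miRNAs (1.91) and summed with miR-100-5p (1.84), and ran from 1.37 to 2.69 with 1 library left out. That of miR-99b-5p did not pass with library size alone (1.67), no filter (2.58), limma-voom (3.18), the second values (2.18) or the replicate block (3.05), and ran from 2.03 to 4.30. That of miR-100-5p was 0.30 with DESeq2, 1.27 with upper-quartile factors, 0.32 with means of 50 counts or more, 0.59 with limma-voom, 0.19 without the 3 most abundant miRNAs and -0.89 to 1.91 with 1 library left out, that of miR-125a-5p -2.83 to 10.36 and that of miR-125b-5p -3.53 to 0.15. The log2 ratio of miR-99b-5p to miR-125a-5p in plasma differed by -0.17 with 5 added reads and by -3.19 to 4.67 with 1 library left out, and that of miR-99a-5p to miR-100-5p in BAT by -0.31 to 0.24. Of the 16 mean shares by miRNA and group, 12 moved by more than 1 SD without the 3 most abundant miRNAs, and of the 8 in plasma 4 did with the second values. The causes were not tested. With 18 to 40 reads a library in BAT, depth limits miR-125a-5p most.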

Other observations

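In plasma let-7e-3p, the other arm of the hairpin between Mir99b and Mir125a, had 549 and 0 reads in Exe plasma and 0 and 0 in Sed plasma. In the same order, miR-125a-5p had 906 and 1 reads in Exe plasma and 941 and 35 in Sed plasma. The 2 strands thus did not go together in Sed plasma replicate 1. In BAT let-7e-3p had 0, 9 and 9 reads in Exe BAT and 3, 1 and 4 in Sed BAT. Reads per unit of the second plasma value were 1.09 and 1.05 in Exe plasma for miR-99a-5p and 1.35 and 16.3 in Sed plasma, and for miR-100-5p 1.02 and 1.01 in Exe plasma and 5.41 and 4.95 in Sed plasma.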
